A study of Mus musculus with 8 samples.

Results

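Imprinted genes are expressed from 1 parental allele. The 42 genes described here, of 55450 genes in GENCODE release M21 (mm10, assembly GRCm38), are 23 genes expressed from the paternal allele, 11 from the maternal allele, 5 genes that hold or neighbour an imprinted gene and are themselves mostly expressed from both alleles, and 3 with allelic expression that depends on the promoter or tissue. They were taken as a list of names. Every tag cluster on the strand of the gene whose dominant TSS lay between 500 bp upstream of the gene start and the gene end was assigned to the gene. A tag cluster is a run of nearby capped 5′ ends, and its dominant TSS is the position with the most signal. This gave 119 clusters in E14, 121 in clone A1 and 118 in clone C7, of 32857, 33005 and 32870 clusters in all. Clusters of Mcts2, which lies within H13 on the same strand, were counted once in these totals and described under both genes.

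CAGE-seq captures the cap of RNA polymerase II transcripts and reads their 5′ ends, here in nuclear RNA. E14 is a wild-type mouse embryonic stem cell line grown with serum and LIF on gelatin, and was represented by 3 libraries. The other lines, A1 (2 libraries) and C7 (3 libraries), are mouse embryonic stem cell clones in which Pwwp2a and Pwwp2b, whose products bind chromatin and a histone deacetylase complex, were both knocked out (DKO). Each of A1 and C7 is a single clone, and clone and genotype cannot be told apart within a line.

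The libraries of a line were merged before the clusters were called, so each line gives 1 set of positions, with no replicate error and no test. Only positions were used. Every score in the cluster set used here is 0, so the number of reads behind a cluster is not known from it. Signal tracks and the read totals of the libraries were not used here. The parental alleles are not separated. Counts therefore describe where capped ends were called and not how much RNA each gene or allele gave. At Pwwp2a, 2 clusters were called in every line, and at Pwwp2b none was called in any line, which as positions check nothing about the knockouts. All 8 listed markers of embryonic stem cells had a cluster in every line. Markers of other cell types had a cluster at Sox17 (1 of 4 endoderm genes), at none of 4 mesoderm genes, at Sox1 and Tubb3 (2 of 4 neural genes), at Krt7 (1 of 3 trophoblast genes) and at Col1a1, Col1a2 and Thy1 (3 of 4 fibroblast genes), with the same counts of genes in E14, A1 and C7. The part of cells of those types was not tested.

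Most imprinted genes lie in domains. In each domain a stretch of DNA methylated on 1 parental chromosome, the imprinting control region, governs genes over a long distance, often through a long noncoding RNA that starts within it. ZFP57, a zinc finger protein that binds the methylated hexamer TGCCGC, and its partner TRIM28 maintain these marks in embryonic stem cells. Several imprinted genes are retrogenes that sit inside an intron of a host gene, and others start back to back with an imprinted neighbour.

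The stretches printed first are from a choice of starts that differ between lines, starts of paired genes and other starts described below. They leave out some of the shifts named later. They run 5′ to 3′, with the capitals marking the base before the dominant TSS and the TSS itself. Where the clones and E14 used different positions, both are marked. Each stretch was read from RefSeq promoter sequences (GRCm38.p6) and GENCODE transcripts, which had 0 disagreeing bases where they overlapped, and some were shortened to leave out UTR sequence.
Igf2r, chr17:12769635-12769752, minus strand: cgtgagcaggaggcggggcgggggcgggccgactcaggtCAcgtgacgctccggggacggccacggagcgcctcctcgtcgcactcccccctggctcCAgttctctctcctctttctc
Airn, chr17:12741333-12741395, plus strand: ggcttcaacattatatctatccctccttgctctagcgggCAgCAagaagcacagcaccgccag
Gnas exon 1A start, chr2:174327672-174327746, plus strand: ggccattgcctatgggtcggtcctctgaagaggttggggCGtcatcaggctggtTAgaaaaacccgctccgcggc
Gnas main start, chr2:174330065-174330094, plus strand: ggggcggcgggcccgggccgaggCAataag
Kcnq1ot1, chr7:143296521-143296580, minus strand: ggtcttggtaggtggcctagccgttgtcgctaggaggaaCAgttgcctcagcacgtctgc
Peg3, chr7:6730400-6730459, minus strand: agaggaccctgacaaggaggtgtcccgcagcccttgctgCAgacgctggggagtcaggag
Usp29, chr7:6730602-6730631, plus strand: agtcagtgttaggggcccccaagCAgagtc
Mest, chr6:30738013-30738072, plus strand: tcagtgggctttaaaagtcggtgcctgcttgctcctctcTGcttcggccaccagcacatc
Nnat, chr2:157560086-157560115, plus strand: aggcacggccaccggggctgcggCAttgcg
Plagl1, chr10:13090814-13090843, plus strand: ggggctggggcgttctcCAacctCActcgc
Grb10, chr11:12037382-12037441, minus strand: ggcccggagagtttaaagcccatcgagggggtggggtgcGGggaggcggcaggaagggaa
Phlda2, chr7:143502512-143502564, minus strand: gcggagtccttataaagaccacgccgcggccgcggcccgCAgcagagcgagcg
Meg3 first start, chr12:109540958-109541017, plus strand: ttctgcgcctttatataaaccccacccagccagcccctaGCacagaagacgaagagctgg

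Of the 42 genes, 35 had at least 1 same-strand cluster in E14 (83.3%, 95% Wilson interval from 69.4 to 91.7), 36 in A1 and 35 in C7. Among all protein-coding genes the share was 52.2% in E14 and A1 and 52.1% in C7, and among all lincRNA genes it was 7.00%, 7.00% and 6.92%. The interval covers counting error only, and the genes share domains, so they are not independent. Of 24 other imprinted genes looked up, 10 had a same-strand cluster in each line. Genes and lists were chosen with earlier results of these data known, so the share describes this list and not imprinted genes in general. Within the list of 42, the genes with a cluster were 19 of 23 paternally expressed genes in E14 and C7 and 20 of 23 in A1. They were 8 of 11 maternally expressed genes, 5 of 5 host or neighbour genes and 3 of 3 genes of mixed kind in each line. Of 8 genes whose product is an RNA, 6 had a cluster in each line.

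H19, Kcnq1, Zim1, Rtl1, Nap1l5 and Peg13 had no same-strand cluster in any line. H19 is the maternally expressed noncoding RNA downstream of Igf2, Kcnq1 encodes a potassium channel, and Rtl1 is a gene derived from a retrotransposon that matters in the placenta. Dlk1, which encodes a membrane protein related to Notch ligands, had none in E14 and C7. In A1 it had 1 cluster of 1 bp at 109453491 on chromosome 12, at the annotated start of a coding transcript and 668 bp after the gene start. A gene with no cluster is one at which no capped end reached the authors' minimum, and a low level of RNA is not shown to be absent.

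**Figure D1:**
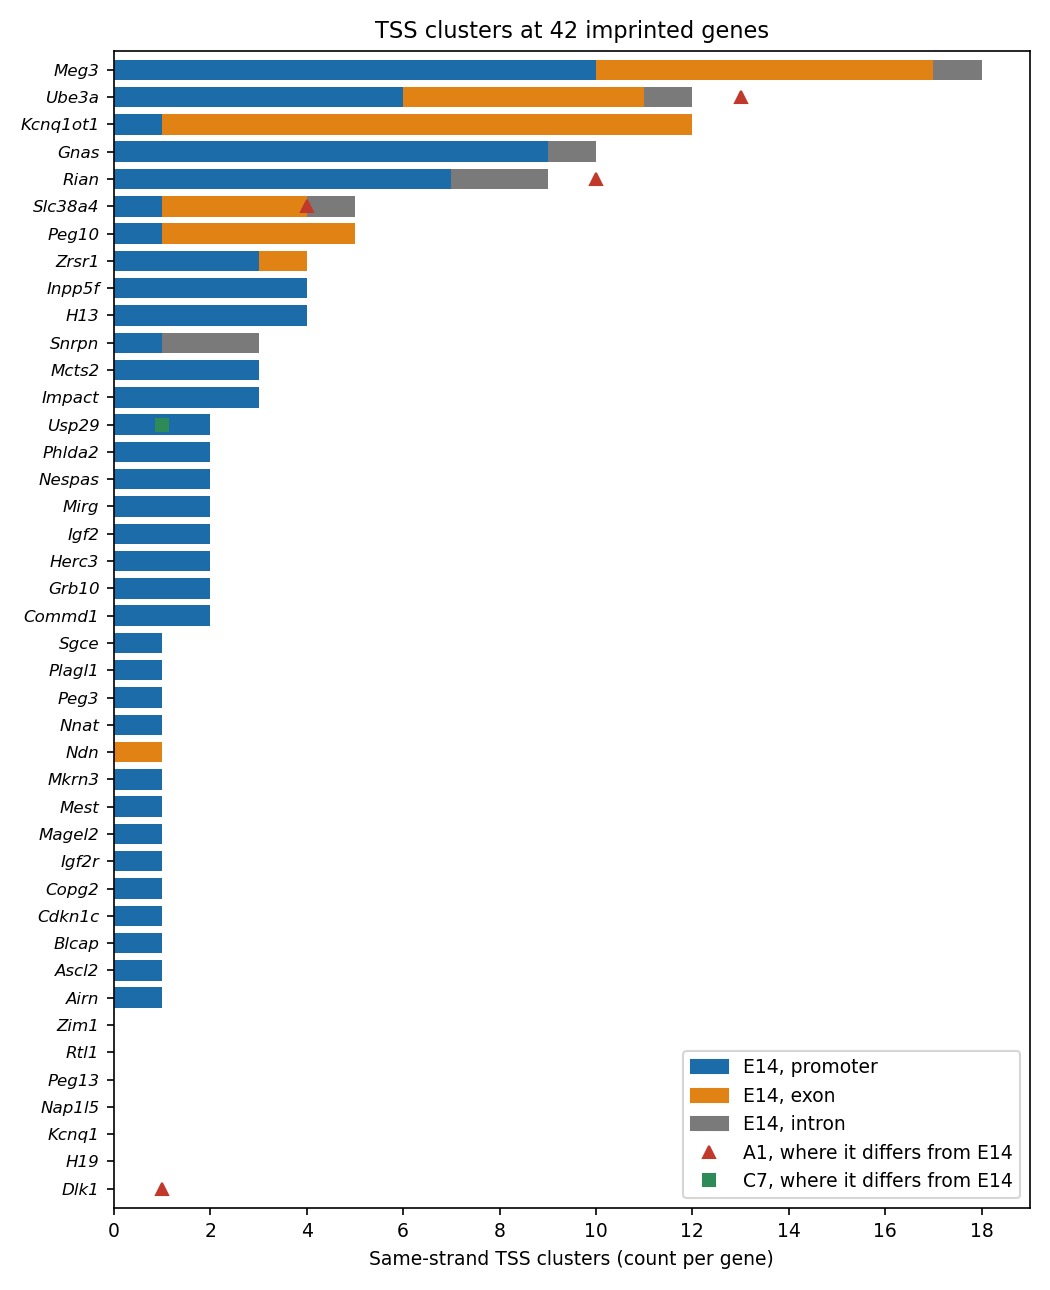
The bars give the number of same-strand TSS clusters at each of the 42 genes in E14, by category (promoter, exon, intron). Triangles (A1) and squares (C7) mark the count only where it differs from E14, which was the case at Ube3a, Rian, Slc38a4 and Dlk1 for A1 and at Usp29 for C7.

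Clusters were unevenly spread over the genes. In E14, 14 genes had exactly 1 cluster, 8 had exactly 2, and 7 had 5 or more. The 5 genes with most, Meg3 (18 clusters), Kcnq1ot1 (12), Ube3a (12), Gnas (10) and Rian (9), held 61 clusters in E14. Ordered by category, 79 of the 119 E14 clusters had their dominant TSS within 500 bp of an annotated transcript start and were called promoter clusters (66.4%, against 60.5% of all E14 clusters). Another 32 lay in exons (26.9%, against 13% of all) and 8 in introns (6.72%, against 9.27%). Of the exonic clusters, 18 lay in exons of noncoding transcripts, 9 in 3′ UTRs, 4 in coding sequence and 1 in a 5′ UTR. By gene, Kcnq1ot1 held 11 of the 32 and Meg3 held 7, so the exonic share rests largely on these noncoding RNAs and is not a trait of the list. The counts of promoter, exonic and intronic clusters in A1 were 81, 32 and 8, and those in C7 were 78, 32 and 8. With a promoter window of 100 bp, 51 clusters in E14 and A1 and 50 in C7 were exonic.

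The annotated transcript starts of the 42 genes fall into 146 groups when starts within 500 bp are joined. Of these, 49 had a cluster within 500 bp in E14, 51 in A1 and 48 in C7. Of the genes, 31 have several groups of starts, and 10 used 2 or more of them in E14 and A1, and 9 in C7. Start groups were not counted over all genes, so whether these numbers are low or high is not known. Meg3, Rian, Gnas and Impact used 3 or more in each line. A group counts as used if a cluster lies within 500 bp, which does not show that it acts as a promoter. At Rian, 1 such cluster lay 3 bp after the start of the snoRNA Gm24895. At Meg3, 1 group counts through clusters 371 and 396 bp past its start. In each line, 9 genes had no cluster at the first group and a cluster at a later one. The genes were not all the same, since Rian was among them in E14 and C7 and Dlk1 in A1.

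The widest E14 cluster within 500 bp of a transcript start annotated to the gene itself was defined for 34 genes and is called the main start. Clusters near a start of another gene only, such as those of Mcts2 in H13 or the first cluster of Mirg, were not eligible. It lay within 50 bp of an annotated start of the gene at 31 of them, with a median distance of 8 bp, and at 10 genes its dominant TSS was the annotated base itself. The 3 over 100 bp away were Igf2 (186 bp after the nearest annotated start), Mcts2 (136 bp after it) and Rian (140 bp before it). At Ndn, which encodes the neuronal growth suppressor necdin, no cluster met the promoter rule. Its 1 cluster had its dominant TSS at 62348322 on chromosome 7 in all 3 lines, 1753 bp inside the GENCODE gene but within the window RefSeq gives as its promoter (62348027 to 62348326).

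Main starts ranged from sharp to broad. The interquantile width, the length that holds the signal between quantiles 0.1 and 0.9, had a median of 20 bp in E14 over the 34 main starts. It was at most 10 bp at 14 genes and at least 30 bp at 10. Main starts were picked as the widest cluster of a gene, so these widths are selected towards broad ones. The main start is also not shown to be the strongest. Peg10 had 2 bp, as had the Mirg cluster at the end of miR-410-3p. Mest had 3 bp, Peg3 and Cdkn1c 4 bp, and Nnat and Phlda2 5 bp. At the other end, Sgce had 82 bp, Igf2r 72 bp and Slc38a4 62 bp. Over all promoter clusters of these genes, main or not, the median was 8 bp in E14, 9 bp in A1 and 9.50 bp in C7, against 20, 21 and 21 bp over all promoter clusters. Widths of at most 10 bp were found at 45 of 79 of them in E14 (57%, against 33.4% of all promoter clusters). Many of the narrow ones were secondary clusters of Meg3, Gnas, Rian and Inpp5f, which each had 4 or more clusters.

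**Figure D2:**
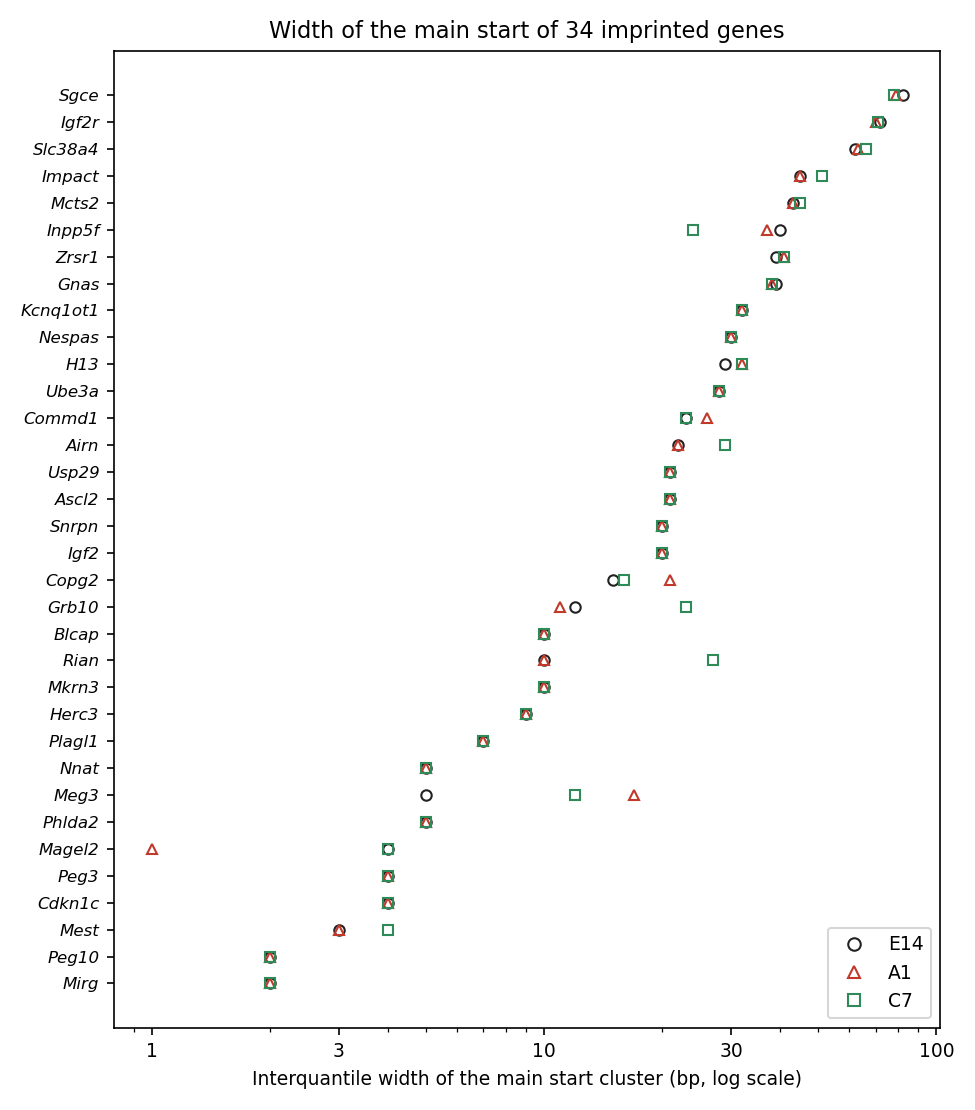
The horizontal axis (bp, log scale) gives the interquantile width of the main start cluster of 34 genes, with a circle for E14, a triangle for A1 and a square for C7. Genes from Mirg (2 bp) to Sgce (82 bp) are ordered by their width in E14, and the 3 lines lie apart most at Magel2, Meg3, Grb10, Rian and Inpp5f.

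In the Igf2 and H19 domain, Igf2, the growth factor expressed from the paternal allele, had 2 of its 7 groups of starts in use. One cluster spanned 142661000 to 142661019 on chromosome 7, and its dominant TSS was its first base, 142661019, in each line. The other spanned 142657479 to 142657481, 14 bp before the start of a coding transcript. Its dominant TSS was at 142657480 in E14 and 1 bp downstream in both clones.

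Igf2r, the receptor that clears IGF2, and Airn, the noncoding RNA that starts in the intron of Igf2r on the other strand and silences it in cis, each had 1 cluster. The Igf2r cluster spanned 12769619 to 12769735 on chromosome 17 in all lines. The dominant TSS was 12769654 in E14 and 12769712, 58 bp upstream, in both clones. The printed stretch of Igf2r holds both positions, and both have C before A. The interquantile region ran from 12769646 to 12769717 (72 bp) in E14, from 12769648 to 12769717 (70 bp) in A1 and from 12769648 to 12769718 (71 bp) in C7. Its bounds thus differed by at most 2 bp between the lines while the dominant TSS differed by 58 bp. At Airn the dominant TSS was at 12741376 in E14 and 3 bp upstream in both clones, again from a CA to a CA. The dominant TSSs of the 2 genes lay 28278 bp apart in E14 and 28339 bp apart in the clones.

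In the Kcnq1 domain, Kcnq1ot1, a long noncoding RNA that starts in an intron of Kcnq1 and is read from the paternal allele, had 12 clusters in each line. The promoter cluster, from 143296506 to 143296582 on chromosome 7, had its dominant TSS at 143296540 and a width of 32 bp in every line, 9 bp from the annotated start. The other 11 lay from 9278 to 72264 bp downstream, all in the unspliced exon of the RNA, and 9 of them were 2 bp wide in E14. Of the silenced neighbours, Cdkn1c (an inhibitor of the cell cycle), Phlda2 (a regulator of placental growth) and Ascl2 (a transcription factor of the trophoblast) had 1, 2 and 1 clusters. Their dominant TSSs were the same in E14, A1 and C7. Kcnq1 itself had no cluster on its strand.

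Peg3, a zinc finger gene, and Usp29, a gene of the ubiquitin protease family, start back to back. Their dominant TSSs, at 6730419 and 6730626 on chromosome 7, lay 207 bp apart in all 3 lines. The Peg3 cluster was sharp (4 bp) and the Usp29 cluster 21 bp wide in every line. A second Usp29 cluster of 1 bp at 6947926, 217348 bp into the gene, was called in E14 and A1 and not in C7. Peg10, a gene derived from a retrotransposon and needed in the placenta, and Sgce, which encodes epsilon-sarcoglycan, form the other back-to-back pair. Peg10 had its dominant TSS at 4747367 on chromosome 6 with a width of 2 bp in every line. Sgce had 82, 79 and 78 bp in E14, A1 and C7, and its dominant TSS moved from 4747138 in E14 to 4747157 in both clones. The distance between them was 229 bp in E14 and 210 bp in the clones. Peg10 also had 4 exonic clusters, 1 in coding sequence and 3 in the 3′ UTR.

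In the Prader-Willi domain, Snrpn, which encodes a splicing protein, had its promoter cluster 135108 bp after the GENCODE gene start, exactly at another annotated start (60005111 on chromosome 7), and a width of 20 bp in every line. No cluster was called at the first annotated start. An intronic cluster of Snrpn from 60004259 to 60004284 had its dominant TSS 22 bp further downstream in both clones than in E14. Magel2 and Mkrn3, a ubiquitin ligase regulator and a ubiquitin ligase, had 1 cluster each at unchanged positions. The Magel2 cluster had a width of 4 bp in E14 and C7 and 1 bp in A1. Ube3a, a ubiquitin ligase that is expressed from the maternal allele in neurons, had 12 clusters in E14 and C7 and 13 in A1. Of the 12, 6 were promoter clusters, 5 exonic and 1 intronic, and 4 of the exonic ones lay in the 3′ UTR. The additional A1 cluster was 1 bp wide, at 59272223, in coding sequence.

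In the Dlk1 and Meg3 domain the maternally expressed noncoding RNAs had 29 clusters in E14, 18 at Meg3, 9 at Rian and 2 at Mirg, and the paternally expressed coding genes Dlk1 and Rtl1 had none on their strand. Rian carries C/D box snoRNAs and Mirg carries microRNAs. At Meg3 the first start, from 109540993 to 109540998 on chromosome 12, peaked at 109540998 in each line, 3 bp before the annotated start. A group of 8 clusters lay from 3868 to 4742 bp downstream, another at 5277 bp, 1 in an intron and 7 in exons from 18928 to 21006 bp. The widest Meg3 cluster, from 109545385 to 109545443, had a width of 5 bp in E14, 17 bp in A1 and 12 bp in C7, with the dominant TSS at 109545399 in each.

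The start of Rian had a cluster in A1 only. It covered 109603918 to 109603920 and lay 22 bp before the annotated start of a transcript. The other 9 Rian clusters were called in every line, from 9405 to 46730 bp into the gene. At Mirg no cluster lay near the first annotated start, and the clusters were 6304 and 14021 bp into the gene.

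**Figure D3:**
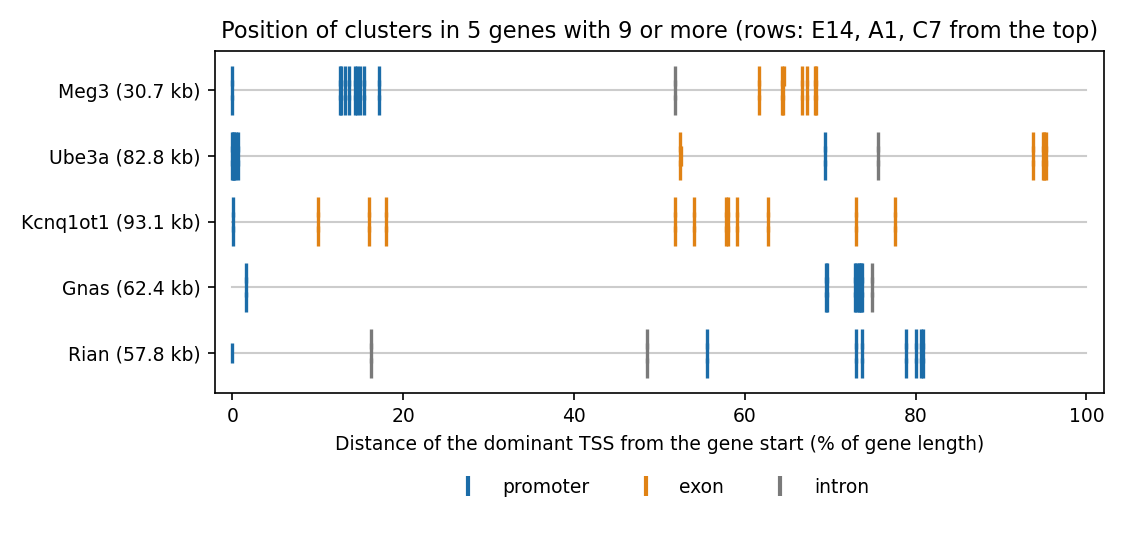
Each vertical mark is a cluster of Meg3, Ube3a, Kcnq1ot1, Gnas or Rian, placed by its dominant TSS as a percentage of gene length, in rows for E14, A1 and C7 and coloured by category. Kcnq1ot1 has 1 mark at its start and 11 exonic marks along its length, and the rows differ by a single A1 mark at Ube3a and at Rian.

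Gnas has several promoters of different imprinting. The one for the G protein subunit Gs alpha is expressed from both alleles in most tissues, the promoter for XL alpha s and the one of exon 1A are paternal, and the one for NESP55 is maternal, while Nespas runs antisense. In each line 3 of its 7 groups of starts had a cluster. One cluster at 174285302 to 174285312 on chromosome 2 lay 992 bp after the gene start, and none lay within 500 bp of the first start at 174284320. The start at 174297859, which is 13.5 kb into the gene, had no cluster either. Further on, 43392 and 43437 bp into the gene, 2 clusters lay at the noncoding exon 1A transcripts. A group of 6 clusters from 45493 to 45991 bp lay at the Gs alpha start. The widest of these, with dominant TSS 174330089, was an annotated transcript start in all lines, with a width of 39, 38 and 38 bp.

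At exon 1A the dominant TSS was at 174327712 in E14 and at 174327727 in both clones, 15 bp downstream, and the printed stretch changes there from CG to TA. The last Gs alpha cluster moved from 174330311 to 174330317 in both clones. A cluster just before it, from 174330271 to 174330290, had its dominant TSS 19 bp downstream in A1 and unchanged in C7. Nespas had its main start at 174295437 in every line, 1 bp before the annotated start and with a width of 30 bp, and a second cluster at 174285172 in E14 and C7 and at 174285179 in A1.

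**Figure D4:**
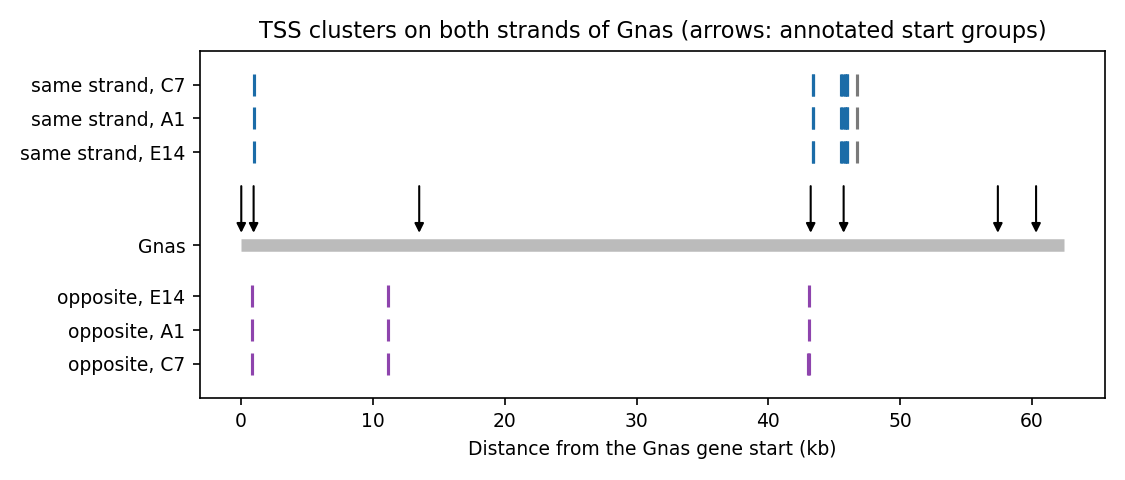
The grey bar is Gnas with distance from its start in kb, arrows mark its 7 annotated groups of starts, and vertical marks give clusters of E14, A1 and C7 on the same strand (above; blue promoter, grey intron) and the opposite strand (below, purple). The arrows at 0, 13.5, 57.4 and 60.3 kb have no same-strand mark, and the C7 row has 4 opposite-strand marks against 3 in E14 and A1, 2 of them nearly on top of each other near exon 1A.

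Some imprinted genes of the list, retrogenes among them, are paired with a host or neighbour gene. Main starts were limited to clusters near a gene's own transcript starts, and most of these pairs lie on opposite strands. That their main starts were separate therefore follows from the definition, and the distances are descriptions only. Mest, which encodes a hydrolase and lies next to Copg2, had 1 cluster with its dominant TSS at 30738053 on chromosome 6 in every line, an annotated start 14506 bp after the gene start, and none at the other 5 groups of starts. Copg2, a coat protein gene, had its cluster 158699 bp away. Nnat, which encodes neuronatin and lies in an intron of Blcap, had its dominant TSS at 157560110 on chromosome 2, 6224 bp from that of Blcap. Zrsr1, a splicing factor retrogene in an intron of Commd1, had 4 clusters and Commd1 had 2, with the main starts 10222 bp apart. Mcts2, a retrogene in H13, had 3 clusters, and its main start moved from 152687171 to 152687184 in both clones while that of H13 stayed at 152669488. Nap1l5 had no cluster and its host Herc3 had 2, of 9 and 2 bp in every line.

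Of the genes outside these domains, Plagl1, a zinc finger gene, had 1 cluster, 30328 bp after the gene start, exactly at another annotated start. Its dominant TSS was at 13090832 on chromosome 10 in E14 and C7 and 6 bp downstream in A1, and its width was 7 bp in every line. Grb10, an adaptor that restrains growth factor signalling, used 1 of its 8 groups of starts, with a width of 12 bp in E14, 11 bp in A1 and 23 bp in C7. Inpp5f, a phosphatase gene with an imprinted internal start, had 2 clusters at its first start and 2 at the internal start, which is 77.2 kb into the gene. Impact, a regulator of translation, had 3 clusters at 3 groups of starts, and the one at 18676 bp moved 16 bp downstream in both clones. Slc38a4, an amino acid transporter, had 1 promoter cluster in every line. It peaked at 97055956 on chromosome 15 in E14 and C7 and 55 bp downstream in A1. Its exonic cluster from 97010147 to 97010148 was called in E14 and C7 and not in A1.

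Clusters in gene bodies are shown by chosen examples from exons of Kcnq1ot1, Ube3a and Slc38a4 and from Meg3, with the capitals as before. All of the examples have G before the dominant TSS, and the exonic ones have A at it. Of 28 exonic clusters with a known base in E14, 23 had G there and 13 had G and then A, so the examples look more uniform than the set.
Kcnq1ot1 exonic cluster 11, chr7:143228586-143228645, minus strand: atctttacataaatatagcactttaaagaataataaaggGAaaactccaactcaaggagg
Kcnq1ot1 exonic cluster 12, chr7:143224266-143224325, minus strand: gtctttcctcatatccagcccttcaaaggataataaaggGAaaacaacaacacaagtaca
Ube3a exonic cluster 6, chr7:59272108-59272167, plus strand: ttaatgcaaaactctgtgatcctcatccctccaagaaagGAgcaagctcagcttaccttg
Slc38a4 exonic cluster 3, chr15:97010129-97010188, minus strand: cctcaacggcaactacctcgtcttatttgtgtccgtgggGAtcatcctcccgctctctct
Meg3 exonic cluster 15, chr12:109561457-109561516, plus strand: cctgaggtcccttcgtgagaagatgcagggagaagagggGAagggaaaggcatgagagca
Meg3 widest cluster, 6, chr12:109545359-109545418, plus strand: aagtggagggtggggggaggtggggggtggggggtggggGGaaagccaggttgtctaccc

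The base before the dominant TSS was G at 23 of 28 exonic clusters with a known base in E14 (82.1%, Wilson interval from 64.4 to 92.1), at 23 of 28 in A1 (82.1%, from 64.4 to 92.1) and at 25 of 28 in C7 (89.3%, from 72.8 to 96.3). Among all exonic clusters it was G at 72.1%, 70.9% and 71.5%. The known bases cover 87.5% of the 32 exonic clusters of these genes. GGG stood before the dominant TSS at 12 of the 28 in E14 (42.9%, against 40% of all exonic clusters), at 11 in A1 (39.3%, against 39%) and at 14 in C7 (50%, against 40.3%). By gene, G stood there at 9 of 11 exonic clusters of Kcnq1ot1, 6 of 7 of Meg3, 4 of 5 of Ube3a and 3 of 3 of Slc38a4. The share over all exonic clusters lay within the interval of these genes in E14 and A1 and just below it in C7. Clusters of 1 gene are not independent, and the difference was not tested. The stretches of Kcnq1ot1 clusters 11 and 12 share a run of 16 bases.

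Among the promoter clusters, 64 of 79 in E14 (81.0%) had known bases. A pyrimidine stood before the dominant TSS at 40 of these and G at 22. The share over all promoter clusters was not computed, so whether these counts are unusual is not known. The G was concentrated by gene, at 7 of 7 promoter clusters of Rian and 8 of 10 of Meg3, against 0 of 9 of Gnas and 0 of 1 at each of Airn, Igf2r, Kcnq1ot1, Peg3, Nnat and Mest. Grb10 had G at 2 of 2 and Ube3a at 2 of 5. At Meg3 the other 2 had A before the dominant TSS. This base was examined after the stretches had been seen, and whether a G added opposite the cap was removed is not given in the sources used here.

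TATAAA stood within the 40 bases before the dominant TSS on the same strand in 2 of 92 stretches, 30 bases before that of Phlda2 and 27 bases before the first start of Meg3. In the promoter table, 2.31% of 32851 entries hold it in the 40 bases before the gene start. Of the 92 stretches, 64 are from promoter clusters and the others from gene bodies, so this share over gene starts is not a matched background. TGCCGC, searched on both strands of the RefSeq promoter windows of 250 bases before to 50 after a gene start, occurs in 11.6% of them. Windows at used starts of Mest, Nnat, Mcts2, Snrpn, Plagl1, Grb10, Meg3, Copg2 and Commd1 hold it, and so do windows without a cluster at Igf2, Nap1l5 and Zim1. Only 33 of the 42 genes (78.6%) matched an entry, below the 80% minimum set for such checks, so a share over the genes is void and none is given. These matches are descriptions of letters.

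Several clusters of the Dlk1 and Meg3 domain lay at the ends of small RNAs. The mature microRNAs are shown in RefSeq letters with the seed, bases 2 to 8, in capitals, and the Mirg and Rian stretches that carry the ends follow.
mmu-miR-127-3p, chr12:109592888-109592909, plus strand: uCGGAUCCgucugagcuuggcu
mmu-miR-136-3p, chr12:109595366-109595387, plus strand: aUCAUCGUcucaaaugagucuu
mmu-miR-410-3p, chr12:109743764-109743784, plus strand: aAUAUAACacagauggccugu
Mirg cluster 2, chr12:109743745-109743804, plus strand: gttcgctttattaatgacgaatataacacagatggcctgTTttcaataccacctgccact
Rian cluster 3, chr12:109635975-109636034, plus strand: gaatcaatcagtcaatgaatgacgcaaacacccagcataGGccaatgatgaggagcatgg
Rian cluster 4, chr12:109646092-109646151, plus strand: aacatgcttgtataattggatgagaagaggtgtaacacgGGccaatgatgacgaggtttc
Rian cluster 9, chr12:109650630-109650689, plus strand: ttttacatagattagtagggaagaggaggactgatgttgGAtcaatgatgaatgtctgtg

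The 3 microRNAs have different seeds. A dominant 5′ end lay 2 bp after the last base of miR-127-3p, at 109592911, in all 3 lines. One lay 1 bp after miR-136-3p, at 109595388, in E14 and C7 and 3 bp after it in A1. The cluster at the end of miR-410-3p had its dominant TSS at 109743785, 1 bp after it, in every line. Both miR-127 and miR-136 are read from the strand opposite to Rtl1, so these clusters count as antisense to it, while miR-410 lies in Mirg. Over all clusters, 7 in each line lay 1 to 3 bp after 1 of 1738 mature microRNAs. At Rian, 2 clusters had dominant TSSs 3 bp after the annotated starts of the snoRNAs AF357425 and Gm24895. The letters TGATGA, the core of the C box of C/D snoRNAs, stand within 20 bases from the dominant TSS in 3 of 92 stretches, all 3 in Rian and printed above. In the promoter table, 0.447% of entries have them in the first 20 bases from the gene start. No snoRNA is annotated within 3 bp of the last of these clusters. Over all clusters, 15 in E14 and A1 and 16 in C7 lay within 3 bp of the start of 1 of 1507 snoRNAs.

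Clusters on the opposite strand within the gene body numbered 30 in E14 and A1 and 31 in C7, at 10 of 42 genes in every line (23.8%, interval from 13.5 to 38.5), against 9.93%, 9.99% and 9.98% of all protein-coding genes. Of the 30, 22 were same-strand clusters of another imprinted gene of the list. They were the 12 clusters of Kcnq1ot1 within Kcnq1, the 4 of Zrsr1 within Commd1, the starts of Airn and Igf2r, which each lie in the other gene, and those of Nnat in Blcap and of Nespas and Gnas. Since the list was built from domains with such overlaps, this share is a property of the list. In each of E14 and A1, 18 of the 30 lay over 500 bp from any annotated start on their own strand.

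The remaining opposite-strand clusters were called at the end of miR-127-3p and miR-136-3p and at positions with no annotated gene on their strand. In E14 these were at 59272055 in Ube3a, at 109596663 and 109598140 in Rtl1, at 4754249 in Peg10, at 157566636 in Blcap, and at 174327387 near exon 1A of Gnas, each with a counterpart in A1 and C7. The one in Blcap lay 302 bp upstream of the dominant TSS of Blcap and pointed away from it. A further cluster of 1 bp near exon 1A of Gnas, at 174327357, was called in C7 only. Rtl1 thus had 4 opposite-strand clusters and no same-strand cluster in any line.

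The comparison of the lines asks whether capped ends at imprinted genes differ without PWWP2A and PWWP2B. Nearly all clusters were shared, and 116 of the 117 found in all 3 lines had identical bounds. The share with identical bounds over all clusters is not given here, so this count is not shown to be particular to imprinted genes. Whether the bounds were set separately for each line is not given in the sources used here. How far the calling of clusters fixed this sharing was not tested. Of the 119 E14 clusters, 1 had no overlapping cluster in A1 (0.840%, against 0.709% of all E14 clusters) and 1 had none in C7 (0.840%, against 0.749%). These were the exonic Slc38a4 cluster and the 1-bp Usp29 cluster. Of the 121 A1 clusters, 3 had none in E14 (2.48%, against 1.11% of all A1 clusters), at Dlk1, Rian and Ube3a and from 1 to 3 bp wide. Of the 118 C7 clusters, 0 were missing in E14, against 0.776% of all C7 clusters. No gained cluster was shared by the clones. With 1 to 3 clusters in each count, the shares do not stand apart from those of all clusters.

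The highest position within a cluster differed more often than its presence. Of the 118 clusters shared by E14 and A1, 33 had another dominant TSS in A1 (28.0%, against 23.8% of all shared clusters), and 9 of these lay more than 10 bp away (7.53% of all). Of the 118 shared with C7, 25 differed (21.2%, against 21.1%), and 7 by more than 10 bp (6.81% of all). The interquantile region was wider than in E14 at 20 clusters in A1 (16.9%, against 20.3%) and at 18 in C7 (15.3%, against 18.5%), and narrower at 11 (9.32%, against 10.5%) and 15 (12.7%, against 10.6%). The shares at imprinted genes were thus near those of all clusters.

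Among the 117 clusters present in all 3 lines, 116 had the same start and end in each, and 77 had the same dominant TSS throughout. In 15 the TSS differed in A1 only and in 7 in C7 only, and in 2 it differed in both clones at different positions. For these counts, and for the direction and size of the shared shifts below, shares over all clusters are not given here. At 16 the dominant TSS was at the same new position in both clones (13.7%, against 8.48% of all such clusters). Both clones are compared with the same E14 set here, so a position particular to E14 enters both comparisons. Of these 16 shifts, 10 were upstream and 6 downstream, 5 were of 1 bp and 6 of more than 10 bp. Those over 10 bp were at Igf2r (58 bp upstream), Snrpn (22 bp downstream, intronic), Sgce (19 bp upstream), Impact (16 bp downstream), Gnas exon 1A (15 bp downstream) and Mcts2 (13 bp downstream). The region was wider in both clones at 11 clusters (9.40%, against 12.5%) and narrower in both at 7 (5.98%, against 4.01%). Without replicates, a shift cannot be set against the spread between libraries, and clusters whose positions have nearly equal signal cannot be told apart from others.

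**Figure D5:**
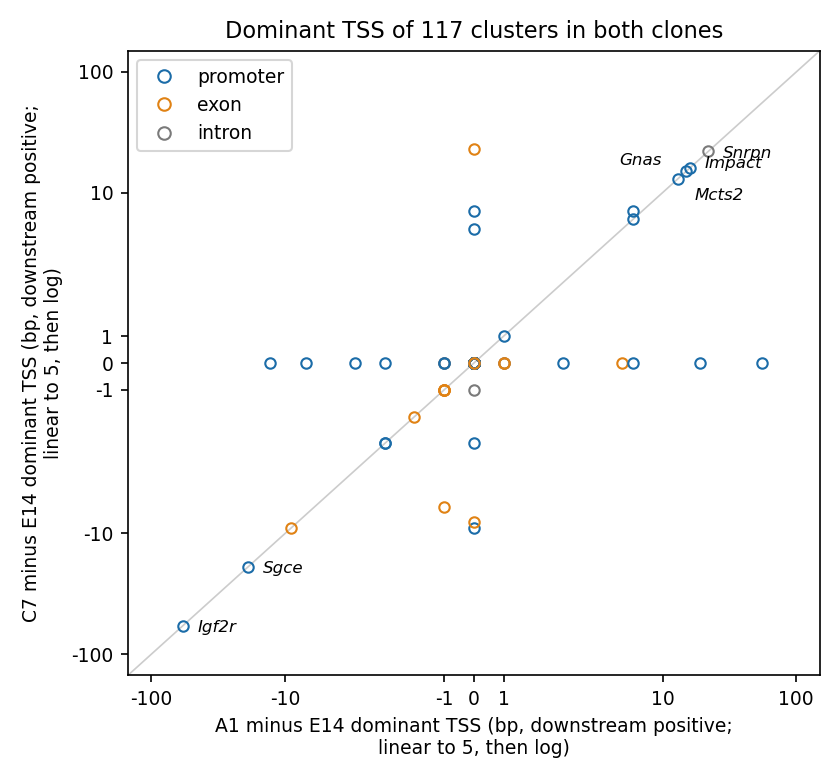
Each circle is 1 of 117 clusters present in all lines, placed by the distance in bp (downstream positive, linear to 5 and then logarithmic) of its dominant TSS from that of E14 in A1 (horizontal) and C7 (vertical), and coloured by category. The 77 clusters with no difference and other equal values lie on top of each other, circles on the diagonal moved alike in both clones, and the 6 that did so by more than 10 bp are named.

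For comparison with genes outside the list, 24 other imprinted genes were looked up, of which 10 had a same-strand cluster in each line, with 30 clusters in E14 and C7 and 31 in A1. Sfmbt2 and Zdbf2, both expressed from the paternal allele, had 5 each in every line. The 6 listed genes that maintain imprints, Zfp57, Zfp445, Trim28, Dppa3, Ctcf and Smchd1, all had clusters, 28 in total in each line, and the dominant TSS of the widest cluster of each was the same in the 3 lines.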

How the data were processed

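Nuclear RNA of mouse embryonic stem cells was profiled by nAnT-iCAGE without PCR. The authors demultiplexed the reads, aligned them to mm10 with STAR (2.4.2a), kept unique alignments, merged the libraries of each line (E14 3, A1 2, C7 3), scaled the tag counts to a power-law distribution and made tag clusters in CAGEr. The submitters' processing notes also list SAMtools 1.3 and bedtools 2.17.0. The signal a cluster had to reach is not given in the sources used here. The deposited values are positions (start, end, dominant TSS and blocks, whose widest is the interquantile region), and every score in these deposited clusters is 0, so no signal was compared. Signal tracks and library read totals, which the study also provides, were not used here.

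Clusters were assigned to GENCODE M21 genes, whereas the study used another release. A cluster was called promoter (within 500 bp of a same-strand transcript start), then exon, then intron. Clusters of different lines were matched by 1 bp of overlap on the same strand. Intervals are 95% Wilson intervals and cover counting error only. No test was possible with 1 merged set per line. Every gene of the list is named, and stretches were chosen from main starts, starts that differ between lines and alternative promoters. Further stretches from gene bodies, among them those of small RNAs, were chosen after their positions were seen. Genes and lists were chosen with earlier results of these data known. The assignment was tested on simulated clusters at 200 genes, and 6 of 6 checks recovered every planted gene. Python 3.11.15, NumPy 2.4.6, SciPy 1.17.1 and Matplotlib 3.10.9 were used. Alternative windows, overlaps, widths and strand rules were tried.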

Additional observations from a re-analysis of the deposited data

How the results depend on the processing

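No paired analysis was possible because the libraries of each line were merged before clusters were called, and no library could be left out for the same reason. The counts of same-strand clusters, genes with one, categories, opposite-strand clusters, clusters absent from a line and dominant TSSs that differed from E14, and the median width over all clusters of these genes, were each recomputed under some of other windows, overlap rules, strand rules and a minimum width. Counts of start groups, main starts, shifts shared by both clones, wider or narrower regions and small RNA ends were not. Of 112 values recomputed, 84 stayed within 1.5 times the main value. The count of exonic clusters rose to 51 (E14, A1) and 50 (C7) with a promoter window of 100 bp and was 16 in each line with protein-coding transcripts only. Intronic clusters numbered 5 in each line with a window of 1000 bp and with protein-coding transcripts. The median width was 8 bp for whole clusters in E14, and with clusters of at least 3 bp it was 11.5 bp in E14, 12 bp in A1 and 16 bp in C7. Opposite-strand clusters numbered 18, 18 and 19 away from annotated starts, and 17 in E14 and 16 in C7 with a width of at least 3 bp. With that width in each line, 3 E14 clusters were absent in C7, 5 A1 clusters were absent in E14 and 7 in C7, and 2 C7 clusters were absent in E14 and 2 in A1. Of the dominant TSSs that differed from E14, 9 in A1 and 7 in C7 did so by more than 10 bp. The share of G before exonic ends, with alternatives chosen after seeing the data, ranged from 69.2% to 92.9% over the 3 lines. The clusters carry no read counts, so the absence of a cluster sets no upper limit on the RNA.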
